A study of Mus musculus with 4 samples.

Results

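The extracellular matrix genes described here are 38 genes for matrix glycoproteins, proteoglycans and the enzymes that fold, crosslink or cut matrix, chosen by symbol from the 20701 gene symbols in the deposited transcript table. All 38 were found, 14 of them with several transcript entries, and each symbol was read from its entry with the most reads over all libraries. RNA-Seq was done on 4 libraries of cardiac progenitor cells at day 5 of differentiation, 2 labelled control and 2 labelled Isl1_KO. Both groups derive from E14 Tg(Nkx2-5-EmGFP) mouse embryonic stem cells, which carry a green fluorescent reporter of the cardiac gene Nkx2-5 and were grown on mitomycin-treated embryonic fibroblasts, and GFP-positive cells were sorted. The Isl1_KO cells are Isl1-/- clones made by CRISPR/Cas9 editing, and the control cells are clones with Isl1. Each library is named below by its group and replicate number. The labels speak of different clones in each group but give no clone for a library and do not say whether the libraries of a group are separate cultures, so differences between clones and between cultures cannot be told apart, and p-values measure the spread between these libraries.

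The extracellular matrix is a meshwork that cells secrete around themselves. Adhesive glycoproteins such as fibronectin link it to integrins on the cell surface, fibrillins and elastin build elastic fibres, proteoglycans with hyaluronan hold water, and laminin, nidogen and perlecan form the basement membrane under epithelium, endothelium and muscle. In the early heart the matrix between myocardium and endocardium, the cardiac jelly, is rich in hyaluronan and versican, and periostin, tenascin and lumican are known as products of mesenchymal cells and fibroblasts.

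In all, 8821517 and 9147425 reads were counted for control replicates 1 and 2, and 13186109 and 11388333 for those of Isl1_KO. At this depth, 3 counts corresponded to 0.231 to 0.341 CPM (counts-per-million of the effective library size). The targeted gene Isl1 was counted 309 and 326 times in the control libraries but 17 and 24 times in the Isl1_KO libraries, a log2 fold change of -4.39 (SE 0.21, adjusted p = 0.00277, edgeR). Nkx2-5, the gene behind the sorting reporter, was at 21.1 and 19.8 CPM in control and at 4.77 and 4.34 CPM in Isl1_KO. Gata4, another cardiac progenitor gene, was at 110 and 111 CPM in control and at 69.4 and 88.0 CPM in Isl1_KO. The control libraries were far closer to each other than the Isl1_KO libraries, with a biological coefficient of variation of 1.26% against 16.4%. Because of this the Isl1_KO libraries are described apart as well as together. The edgeR tests used a joint model of both groups, with a coefficient of variation of 11.1%. Their p-values thus do not allow for the unequal spread of the pairs.

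Summed over the 38 genes, the matrix transcripts took 14511 and 14659 CPM in control, 12283 CPM in Isl1_KO replicate 1 and 9725 CPM in Isl1_KO replicate 2. Both Isl1_KO libraries were thus below both control libraries, and Isl1_KO replicate 2 was the lowest. Fn1, which encodes fibronectin, made up 33.7% of this sum in each control library, 31.3% in Isl1_KO replicate 1 and 39.5% in replicate 2. In bulk RNA, fewer cells of a type and less RNA per cell cannot be told apart. Per length, the highest mean levels over the 4 libraries were those of Fn1 at 523 RPKM (reads scaled for transcript length and depth), the collagen chaperone Serpinh1 at 424 RPKM and Sparc at 283 RPKM. Cyr61 followed at 158 RPKM, Vcan at 103 RPKM and Nid1 at 85.3 RPKM. At the other end, 4 of the 38 genes did not pass the filter on low counts and were not tested.

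**Figure D1:**
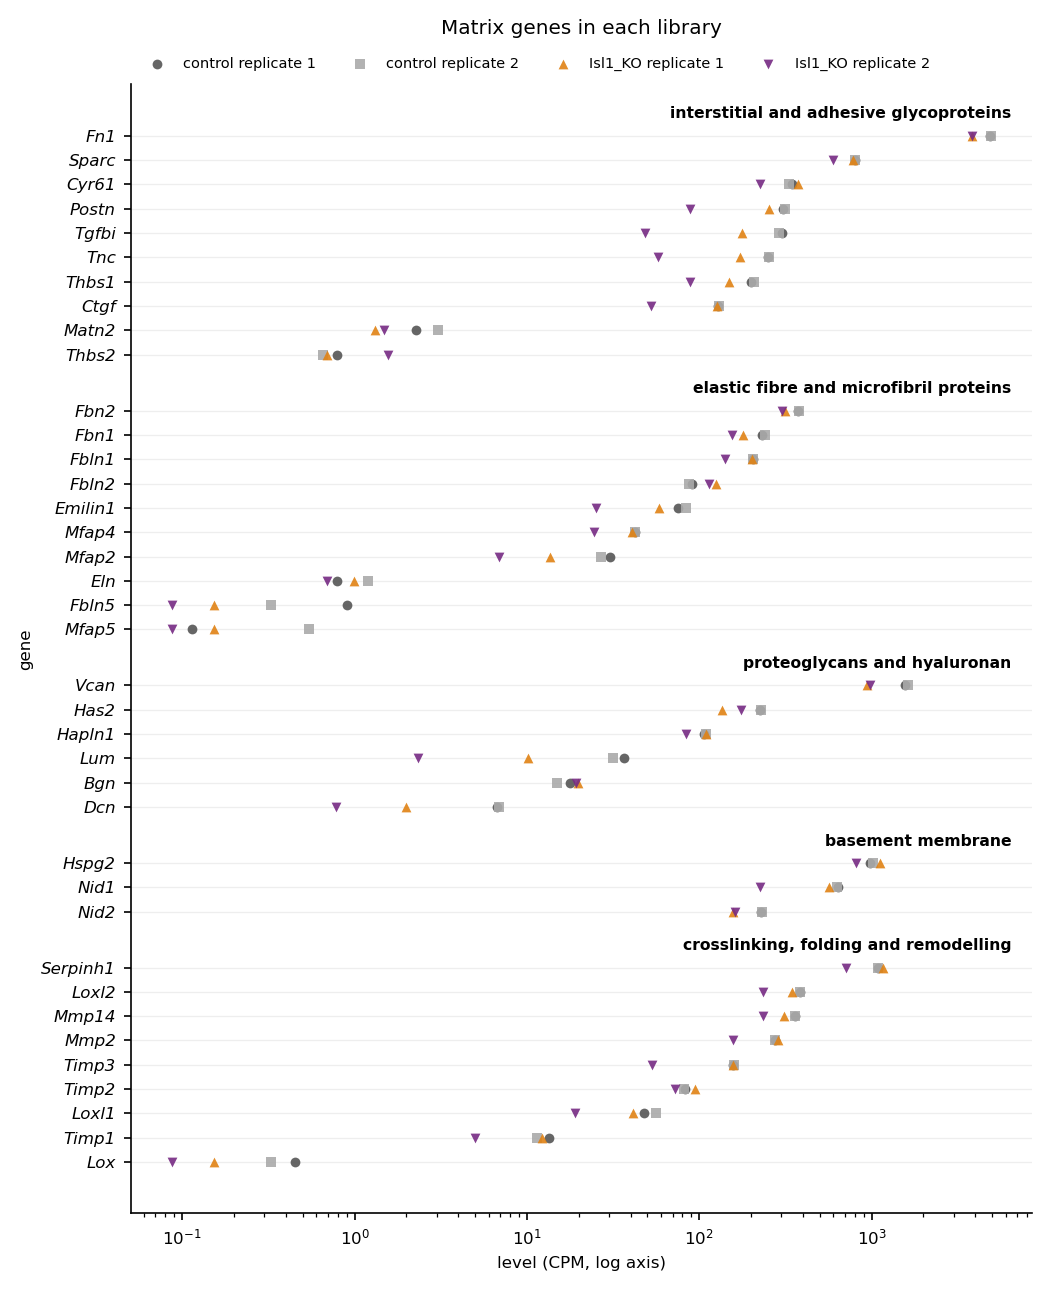
Level of each of the 38 matrix genes in CPM (log axis) in each of the 4 libraries, grouped by role and ordered within a role by the control mean. The control points lie on top of each other for most genes, while Isl1_KO replicate 2 lies farthest left for most, as in Tgfbi with 303 and 290 CPM in control against 178 and 48.3 CPM.

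Across the 34 genes tested, 31 had a log2 fold change below 0 and the median was -0.51, against -0.0027 over all 12715 genes tested. With edgeR, 2 of the 34 were lower in Isl1_KO at an adjusted p under 0.05, Vcan and Nid2, beside 1.94% of all tested genes, and 0 of 34 were higher, beside 0.503%. At an unadjusted p under 0.05 in either direction there were 13 of the 34 (38.2%), beside 23.3% of all tested genes, and 9 (26.5%) had an adjusted p under 0.1, beside 7.6%. By the criteria of the study, an absolute log2 fold change over 0.58 with an unadjusted p under 0.05 in DESeq2, 6 of 38 were lower and 0 of 38 were higher. These were Thbs1, Mfap2, Dcn, Lum, Vcan and Loxl1, a share of 15.8% beside 4.57% of all 16855 genes in that test, with 1.32% of all genes higher. Both Isl1_KO libraries lay below both control libraries for 23 of 34 (67.6%), beside 29% of all tested genes. They lay above both for 2 of 34, Fbln2 and Bgn, beside 29.1% of all.

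The edgeR count rested on both control libraries. It fell without control replicate 1 or without control replicate 2, since the spread then came from the Isl1_KO pair. It rose without Isl1_KO replicate 1 or replicate 2, since the spread then came from the closer control pair. The share of all tested genes called in these fits was not counted, so the counts are not read as a result about matrix genes. DESeq2 at an adjusted p under 0.05 called 8 of the 35 genes that it gave an adjusted p, all lower (Fn1, Thbs1, Fbn1, Mfap2, Dcn, Vcan, Has2 and Nid2), beside 3.34% of all genes lower and 1.33% higher.

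Vcan, the gene of the large chondroitin sulphate proteoglycan versican, which binds hyaluronan in the cardiac jelly, fell in Isl1_KO. It was at 1564 and 1636 CPM in control and at 938 and 986 CPM in Isl1_KO. The means were 1600.3 CPM ± 50.6 and 962 CPM ± 33.6 (SD, n = 2 each), and the groups did not overlap. The log2 fold change was -0.73 (SE 0.071, adjusted p = 0.0156, edgeR). Without control replicate 1 it was -0.77 with an adjusted p of 0.365, and without control replicate 2 it was -0.70 with an adjusted p of 0.400. Unlike most of the other matrix genes, Vcan differed little between the Isl1_KO libraries, with a value of -0.071 for replicate 1 minus replicate 2 on the log2 scale (95% counting interval -0.11 to -0.034).

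Vcan lies on the minus strand of chromosome 13 at chr13:89794915-89882117 (GENCODE vM1 on NCBIM37, the assembly mm9 is made from). Versican isoforms differ in 2 long exons that encode the chondroitin sulphate attachment regions, GAG-alpha and GAG-beta. V0 holds both, V1 only beta, V2 only alpha and V3 neither. The table has an entry for each isoform, so differences between nested entries give the reads of each long exon. The GAG-alpha exon spans chr13:89842523-89845402 (2880 bases) and the GAG-beta exon chr13:89827890-89833106 (5217 bases). The first 120 bases of each exon, in the order of the transcript (minus strand of NCBIM37), are shown because the reads of these exons separate the isoforms below.
Vcan GAG-alpha exon, chr13:89845283-89845402: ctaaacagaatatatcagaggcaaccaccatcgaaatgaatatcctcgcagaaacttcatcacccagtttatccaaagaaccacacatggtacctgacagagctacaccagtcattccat
Vcan GAG-beta exon, chr13:89832987-89833106: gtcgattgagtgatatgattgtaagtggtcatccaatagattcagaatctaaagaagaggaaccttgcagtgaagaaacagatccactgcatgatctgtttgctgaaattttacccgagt

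The GAG-alpha exon held 10.3% and 10.8% of Vcan reads in control and 8.35% and 8.02% in Isl1_KO. The Wilson 95% intervals, which cover counting error only, were 9.83% to 10.8% and 10.4% to 11.4% in control and 7.87% to 8.85% and 7.53% to 8.53% in Isl1_KO, so neither Isl1_KO interval reached a control interval. In reads per base relative to the exons that all isoforms share, the GAG-alpha exon was at 0.476 and 0.517 in control and at 0.356 and 0.356 in Isl1_KO. The GAG-beta exon did not separate the groups, with 57.1% and 57.7% of Vcan reads in control and 56.5% and 58.2% in Isl1_KO. The exons that all isoforms share held 32.6% and 31.4% in control and 35.1% and 33.8% in Isl1_KO. With 2 libraries against 2, 0.333 is the smallest two-sided p that an exact permutation test allows, and no test was made of the shares. The exons were chosen after the fall of Vcan was known. The entry with neither exon, V3, gave a log2 fold change of -0.62 (SE 0.059, adjusted p = 0.0158, edgeR over all entries), so the shared exons fell too.

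**Figure D2:**
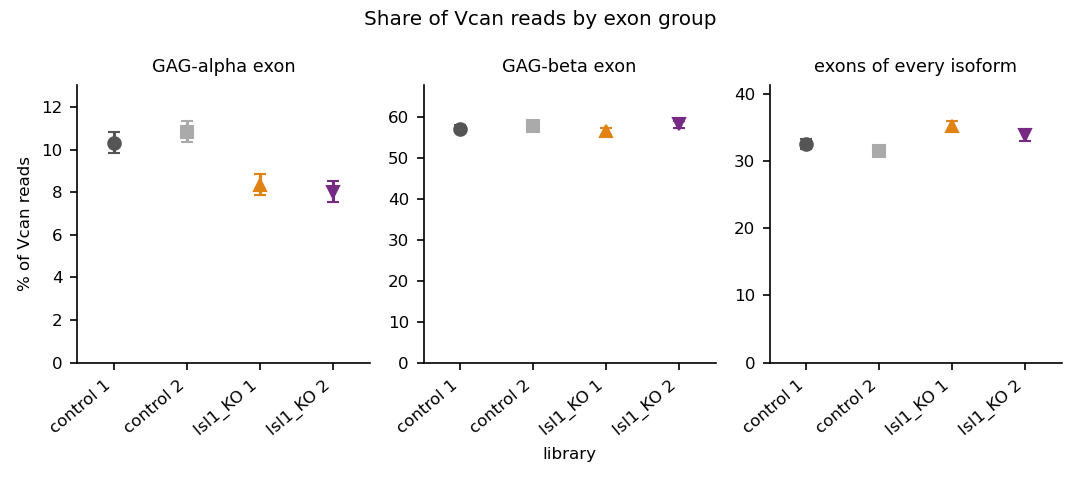
Share of Vcan reads (%) in the GAG-alpha exon, the GAG-beta exon and the exons of every isoform, for each library, with Wilson 95% intervals as bars. The GAG-alpha share is 10.3% and 10.8% in control and 8.35% and 8.02% in Isl1_KO, while the GAG-beta shares of the groups overlap.

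Of the other genes of this role, Dcn and Lum, which encode the small leucine-rich proteoglycans decorin and lumican that regulate collagen fibrils, had the lowest log2 fold changes of all 34. Lum was at 36.7 and 31.7 CPM in control, 10.1 CPM in Isl1_KO replicate 1 and 2.34 CPM in replicate 2, with a log2 fold change of -2.43 (SE 0.56, adjusted p = 0.0948). Dcn was at 6.70 and 6.89 CPM in control, 2.00 CPM in Isl1_KO replicate 1 and 0.781 CPM in replicate 2, with a log2 fold change of -2.26 (SE 0.41, adjusted p = 0.0663). Both genes were below control in each Isl1_KO library and did not pass the adjusted threshold in edgeR, while DESeq2 gave an adjusted p of 0.00318 for Dcn and 0.130 for Lum. Their Isl1_KO counts were 132 and 27 for Lum and 26 and 9 for Dcn, so the lowest value of Dcn is close to the floor. Has2, the main hyaluronan synthase of the embryonic heart, was the gene with the largest difference in the other direction, with Isl1_KO replicate 1 below replicate 2 by a log2 value of -0.37. Hapln1, which links versican to hyaluronan, had a log2 fold change of -0.17 and Bgn, which encodes biglycan, of 0.25, and neither passed the test.

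Nid2, which encodes nidogen 2, a linker of laminin and collagen IV in basement membranes, also fell. It was at 228 and 231 CPM in control and at 157 and 162 CPM in Isl1_KO, and the groups did not overlap. The means were 229.8 CPM ± 2.30 and 159 CPM ± 3.14 (SD, n = 2 each), and the log2 fold change was -0.53 (SE 0.062, adjusted p = 0.0279, edgeR). Without control replicate 1 the adjusted p was 0.501, and without control replicate 2 it was 0.476. Nid2 lies at chr14:20570479-20631009 (NCBIM37), and 386 of its exon bases (7.90%) also belong to 2700060E02Rik on the other strand. Reads were counted on both strands together, so reads of these genes can be shared, and 2700060E02Rik was at 69.7 and 68.4 CPM in control and 64.0 and 60.8 CPM in Isl1_KO. Annotated exons of Fn1, Fbn1, Mfap4 and Timp3 also overlap those of a gene on the other strand, so their values may be less certain in the same way. These overlaps are over all annotated transcripts of a gene and need not lie in the entry that was counted.

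The paralog Nid1 behaved differently between the Isl1_KO libraries. It was at 637 and 630.2 CPM in control, 565 CPM in Isl1_KO replicate 1 and 224 CPM in replicate 2. Its log2 fold change of -0.68 (SE 0.41, adjusted p = 0.377) was larger in size than that of Nid2, while the difference between the Isl1_KO libraries was 1.33 for Nid1 and -0.040 for Nid2 on the log2 scale. Hspg2, the gene of perlecan, had a log2 fold change of -0.050 and lay above both control libraries in Isl1_KO replicate 1 and below both in replicate 2.

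Taken apart, the Isl1_KO libraries gave different numbers of lower genes. In log2 CPM against the mean of the control pair, Isl1_KO replicate 1 was lower by more than 0.58 (1.5-fold) for 7 of 34 genes, beside 9.29% of all tested genes, and higher for 0 of 34, beside 2.38%. Isl1_KO replicate 2 was lower for 22 of 34, beside 14.1% of all tested genes, and higher for 0 of 34, beside 5.93%. The median difference was -0.19 for replicate 1 and -0.71 for replicate 2. Both comparisons use the same control libraries and have 1 Isl1_KO library, so no test was made. The 7 genes lower in replicate 1 were Tgfbi, Matn2, Mfap2, Dcn, Lum, Vcan and Has2. Cyr61, Hspg2, Serpinh1, Mmp2 and Timp2 lay above both control libraries in replicate 1 and below both in replicate 2. Eln, Hapln1, Timp1 and Timp3 lay within the control range in replicate 1 and below it in replicate 2. How many of all tested genes did the same was not counted, so these patterns are not read as a trait of matrix genes.

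**Figure D3:**
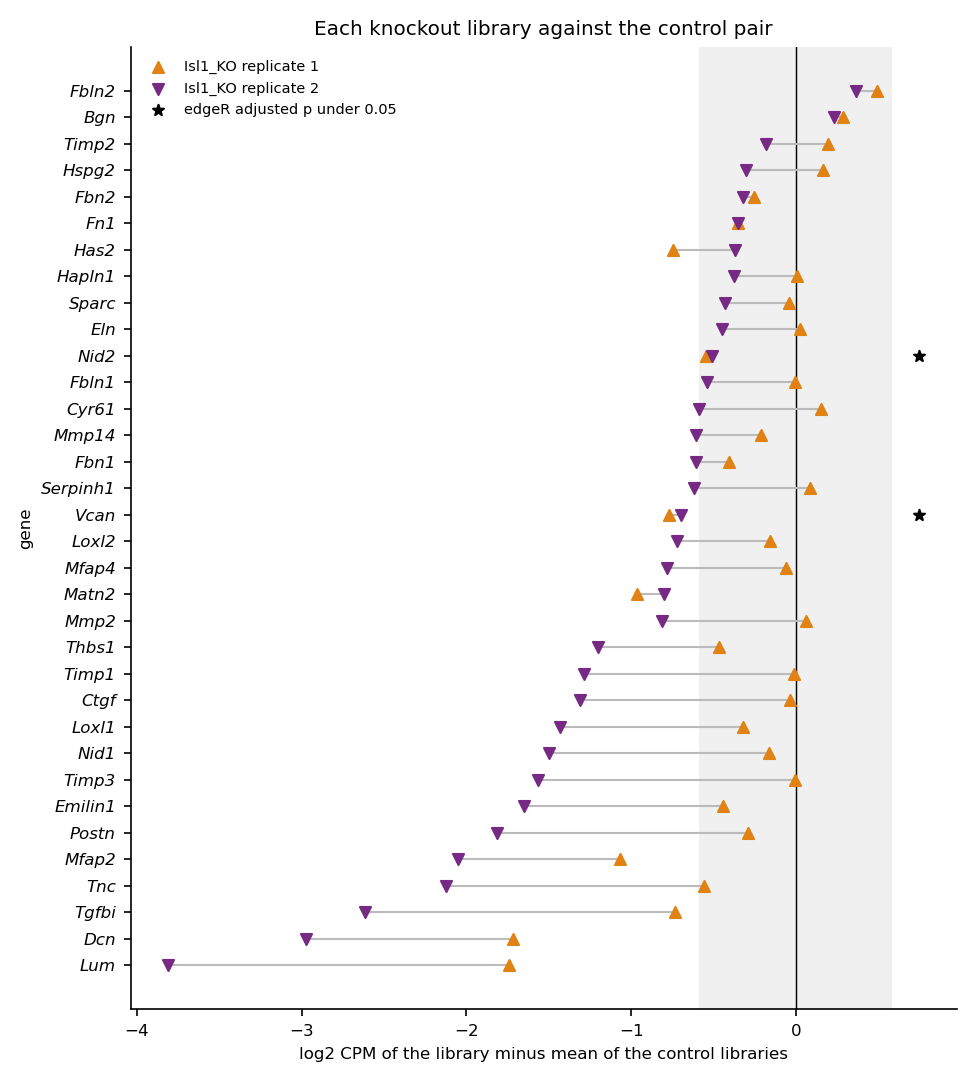
Difference in log2 CPM between each Isl1_KO library and the mean of the control libraries for the 34 tested matrix genes, ordered by Isl1_KO replicate 2, with the band from -0.58 to 0.58 shaded and stars at the genes with an edgeR adjusted p under 0.05. Replicate 2 lies left of the band for 22 genes and replicate 1 for 7, and the starred genes Vcan and Nid2 are among those with the replicates close together.

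A difference of over 1 in log2 CPM (2-fold) between the Isl1_KO libraries was found for 11 of 34 genes, each time with replicate 1 above replicate 2, beside 3.45% of all tested genes. The reverse was seen for 0 of 34, beside 1.7% of all. The median difference was 0.63 over the 34 genes and -0.011 over all tested genes. In the control pair, the median absolute difference of the same 34 genes was 0.035, and the largest was 0.55. By role, differences over 1 were found for 4 of 9 interstitial and adhesive glycoproteins, 1 of 8 elastic fibre proteins, 2 of 6 proteoglycan and hyaluronan genes, 1 of 3 basement membrane genes and 3 of 8 crosslinking, folding and remodelling genes.

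**Figure D4:**
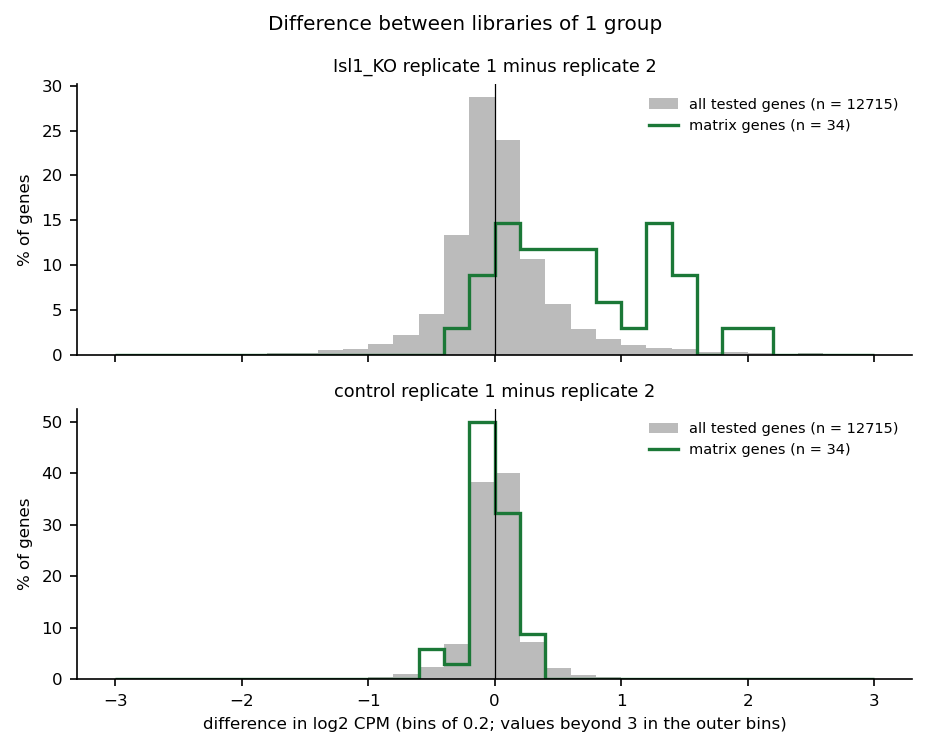
Distribution of the log2 CPM difference between the libraries of a group, as a share of genes (%) in bins of 0.2, for the 34 tested matrix genes (line) and all 12715 tested genes (filled), with the Isl1_KO pair above and the control pair below. In the Isl1_KO pair the matrix genes have a median of 0.63 and all genes of -0.011, while in the control pair the largest absolute difference of a matrix gene is 0.55.

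Among the adhesive glycoproteins, Tgfbi had the largest difference between the Isl1_KO libraries. It encodes a matrix protein that transforming growth factor beta induces, and it was at 303 and 290 CPM in control, 178 CPM in Isl1_KO replicate 1 and 48.3 CPM in replicate 2. The difference between the Isl1_KO libraries was 1.88 on the log2 scale (95% counting interval 1.75 to 2.02), and the log2 fold change of the groups was -1.38 (SE 0.57, adjusted p = 0.226). Tnc, which encodes the anti-adhesive glycoprotein tenascin C, was at 252 and 254 CPM in control, 172 CPM in Isl1_KO replicate 1 and 58.0 CPM in replicate 2. Postn, the gene of periostin, a matrix protein of fibroblasts and valve cushions, was at 307 and 313 CPM in control, 253 CPM in Isl1_KO replicate 1 and 88.2 CPM in replicate 2. All 3 genes had both Isl1_KO libraries below both control libraries, and none passed the adjusted threshold (adjusted p = 0.235 for Tnc and 0.329 for Postn).

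Ctgf and Cyr61 are related secreted proteins that bind integrins and are known targets of the Hippo pathway. Ctgf was at 129 and 130.3 CPM in control, 127 CPM in Isl1_KO replicate 1 and 52.2 CPM in replicate 2, so that only replicate 2 stood apart. Cyr61 was at 345 and 332 CPM in control, 376 CPM in Isl1_KO replicate 1 and 225 CPM in replicate 2, and its direction thus depended on the library. Neither passed the test (adjusted p = 0.461 and 0.703, edgeR).

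Fn1, the most abundant of the 38 genes, was at 4895 and 4934 CPM in control and at 3845 and 3844 CPM in Isl1_KO. The Isl1_KO libraries were as close as the control libraries, while the groups differed by a log2 fold change of -0.35 (SE 0.067, adjusted p = 0.0712 in edgeR and 0.0202 in DESeq2). Its alternatively spliced exons EDB and EDA are included in embryonic fibronectin. EDB held 1.98% and 1.96% of Fn1 reads in control and 1.74% and 1.95% in Isl1_KO, where the value of replicate 2 lay within its counting interval (1.83% to 2.09%) of both controls. EDA did not separate the groups, with 2.74% and 2.70% of Fn1 reads in control and 2.60% and 2.79% in Isl1_KO. Sparc, a collagen-binding glycoprotein, was at 804 and 798 CPM in control, 777 CPM in Isl1_KO replicate 1 and 594 CPM in replicate 2 (adjusted p = 0.377). Thbs2 was not tested, with 7 and 6 counts in control and 9 and 18 in Isl1_KO.

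Of the tested elastic fibre genes, Mfap2 and Emilin1 stood farthest from control. Mfap2, a microfibril-associated glycoprotein that binds fibrillin, was at 30.5 and 27.0 CPM in control, 13.7 CPM in Isl1_KO replicate 1 and 6.85 CPM in replicate 2 (log2 fold change -1.48, SE 0.32, adjusted p = 0.0868 in edgeR and 0.00074 in DESeq2). Emilin1, a glycoprotein at the surface of elastic fibres, was at 75.7 and 84.3 CPM in control, 58.6 CPM in Isl1_KO replicate 1 and 25.3 CPM in replicate 2 (adjusted p = 0.223). Both were below control in each Isl1_KO library, lowest in replicate 2. The fibrillin genes Fbn1 and Fbn2 had log2 fold changes of -0.50 and -0.29 (adjusted p = 0.0634 and 0.0923). Fbln2, the gene of fibulin 2, was the member with the highest log2 fold change, 0.43 (SE 0.075, adjusted p = 0.0618), and both Isl1_KO libraries were above both control libraries. Fbln5 was not tested, with 8 and 3 counts in control and 2 and 1 in Isl1_KO, nor was Mfap5, with 1 and 5 counts in control and 2 and 1 in Isl1_KO. Eln, the gene of elastin itself, was near the floor, at 0.694 to 1.20 CPM over the 4 libraries.

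In the last role, Serpinh1, the collagen chaperone Hsp47, was at 1096 and 1090.1 CPM in control, 1162 CPM in Isl1_KO replicate 1 and 713 CPM in replicate 2. The tissue inhibitors of metalloproteinases Timp1 and Timp3 were within the control range in replicate 1 and below it in replicate 2. Timp1 was at 13.5 and 11.4 CPM in control and at 12.3 and 5.03 CPM in Isl1_KO, and Timp3 at 158 and 159 CPM in control and at 158 and 53.4 CPM in Isl1_KO. Over all its annotated transcripts, Timp3 shares 1733 exon bases (21.3%) with Syn3 on the other strand, which was at 0.954 to 1.42 CPM. Loxl1, a lysyl oxidase that crosslinks elastin, was at 47.9 and 55.9 CPM in control, 41.4 CPM in Isl1_KO replicate 1 and 19.1 CPM in replicate 2. It was below control in both Isl1_KO libraries, and its log2 fold change of -0.77 (SE 0.35) did not pass the adjusted threshold (adjusted p = 0.267). Lox was not tested, with 4 and 3 counts in control and 2 and 1 in Isl1_KO. All 8 tested genes of this role were lower in replicate 2 than in replicate 1, beside 6143 of all 12715 tested genes. The same held for all 8 tested elastic fibre genes. In this role 7 of 8 were below the control mean by more than 0.58 in replicate 2, beside 14.1% of all tested genes. In replicate 1 it was 0 of 8, beside 9.29% of all.

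The 16 genes not given library by library (Thbs1, Matn2, Fbn1, Fbn2, Eln, Fbln1, Fbln2, Mfap4, Bgn, Hapln1, Has2, Hspg2, Loxl2, Mmp2, Mmp14 and Timp2) had log2 fold changes from -0.94 to 0.43 and edgeR adjusted p-values from 0.0618 to 0.946. DESeq2 called 3 of these 16, with adjusted p-values of 0.0161 for Thbs1, 0.0103 for Fbn1 and 0.0232 for Has2. Mmp2 and Mmp14, metalloproteinases of which the second activates the first, had log2 fold changes of -0.31 and -0.39 and did not pass the test.

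Promoter sequences were taken from RefSeq (GRCm38.p6), which had an entry for 22 of the 38 genes, 27 promoters in all, each from 250 bases before to 50 after a transcript start. Those of Vcan and of the 3 genes with the largest difference between the Isl1_KO libraries among those with an entry are shown, so that a gene with like Isl1_KO libraries can be read beside genes with unlike ones. Capitals mark the TATA box letters TATAAA on either strand. Coordinates are those of GRCm38.p6, another build than that of the counts.
Vcan, chr13:89742463-89742762, minus strand: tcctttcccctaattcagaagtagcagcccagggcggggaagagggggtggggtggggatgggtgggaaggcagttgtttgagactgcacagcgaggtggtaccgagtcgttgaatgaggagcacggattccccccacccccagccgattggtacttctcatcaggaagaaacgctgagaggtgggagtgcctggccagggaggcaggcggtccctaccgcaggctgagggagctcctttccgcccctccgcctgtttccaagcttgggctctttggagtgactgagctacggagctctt
Tgfbi, chr13:56609336-56609635, plus strand: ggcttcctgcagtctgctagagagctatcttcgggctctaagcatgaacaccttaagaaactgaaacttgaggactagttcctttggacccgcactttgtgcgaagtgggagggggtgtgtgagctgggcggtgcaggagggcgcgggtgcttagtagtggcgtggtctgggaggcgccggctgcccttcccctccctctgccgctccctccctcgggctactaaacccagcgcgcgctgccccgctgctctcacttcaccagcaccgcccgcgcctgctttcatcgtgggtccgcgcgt
Tnc, chr4:64046966-64047265, minus strand: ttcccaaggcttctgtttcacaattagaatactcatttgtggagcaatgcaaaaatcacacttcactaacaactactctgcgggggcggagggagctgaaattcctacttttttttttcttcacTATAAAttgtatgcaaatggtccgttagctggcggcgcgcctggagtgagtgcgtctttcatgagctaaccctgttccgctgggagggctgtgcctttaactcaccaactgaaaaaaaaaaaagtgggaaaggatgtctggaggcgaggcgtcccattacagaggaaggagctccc
Timp3, chr10:86300162-86300461, plus strand: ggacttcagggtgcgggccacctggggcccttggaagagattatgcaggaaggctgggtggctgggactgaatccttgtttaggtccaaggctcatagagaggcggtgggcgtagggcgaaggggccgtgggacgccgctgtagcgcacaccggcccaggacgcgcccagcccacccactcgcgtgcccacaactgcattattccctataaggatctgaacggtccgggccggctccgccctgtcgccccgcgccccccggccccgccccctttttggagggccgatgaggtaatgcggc

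TATAAA was found in 5 of the 27 promoters (18.5%) and in 13.6% of all 32851 promoters in the table, counting both strands. Among the 5 are 2 overlapping Tnc windows that hold the same TATAAA, of which the first is printed. CTAATG, which holds the TAAT core that homeodomain proteins bind, was found in 0 of the 27 and in 7.36% of all. GGAATG, the core bound by TEAD factors, was found in 4 of the 27 (14.8%) and in 14.7% of all, and the CArG box of serum response factor in 0 of the 27 and in 1.63% of all. The 4 windows printed held none of these letters except the TATAAA of Tnc. These are matches of letters in short windows, and they say nothing of binding.

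Other matrix genes were taken from a list of 119 further matrix and remodelling genes, of which 118 were found and 86 tested. By edgeR 6 of the 86 (6.98%) were lower in Isl1_KO and 0 were higher, beside 1.94% and 0.503% of all tested genes, and the median log2 fold change was -0.39. The ADAMTS metalloproteinases, several of which cut versican and related proteoglycans, gave 4 of the 6. Adamts1 was at 80.0 and 73.3 CPM in control and 33.4 and 22.4 CPM in Isl1_KO (log2 fold change -1.45, SE 0.20, adjusted p = 0.0359), and Adamts15 at 23.4 and 19.9 CPM in control and 6.38 and 6.25 CPM in Isl1_KO (log2 fold change -1.78, SE 0.16, adjusted p = 0.0128). Adamts12 was at 20.8 and 19.4 CPM in control and 6.38 and 3.21 CPM in Isl1_KO (log2 fold change -2.05, adjusted p = 0.0467), and Adamts5 was low throughout, at 2.04 and 2.19 CPM in control and 0.384 and 0.347 CPM in Isl1_KO (log2 fold change -2.49, adjusted p = 0.0450). For each of these 4 genes both Isl1_KO libraries lay below both control libraries. The same held for 51 of the 86 (59.3%) and for 29% of all tested genes. DESeq2 gave Adamts5 an adjusted p of 0.0965.

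The other 2 were Thbs4 and Spon1. Thbs4, which encodes thrombospondin 4, a glycoprotein of muscle and tendon, was at 12.6 and 12.5 CPM in control and at 0.384 and 0.347 CPM in Isl1_KO (log2 fold change -5.05, SE 0.25, adjusted p = 0.00277). Spon1, which encodes the secreted adhesion protein spondin 1, was at 61.1 and 62.7 CPM in control and at 13.7 and 11.5 CPM in Isl1_KO (log2 fold change -2.30, SE 0.12, adjusted p = 0.00295). The Isl1_KO values of Thbs4 were 5 and 4 reads, near the floor, so the size of its fold change is uncertain. The counting interval of its difference between these libraries was -2.07 to 2.48, too wide to say whether they were alike. For Spon1 the Isl1_KO libraries were close together, with a difference of 0.25 on the log2 scale. The count of 6 fell without either control library and rose without either Isl1_KO library, since the spread then came from the pair left whole. It was 3 with at least 10 counts required in every library.

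**Figure D5:**
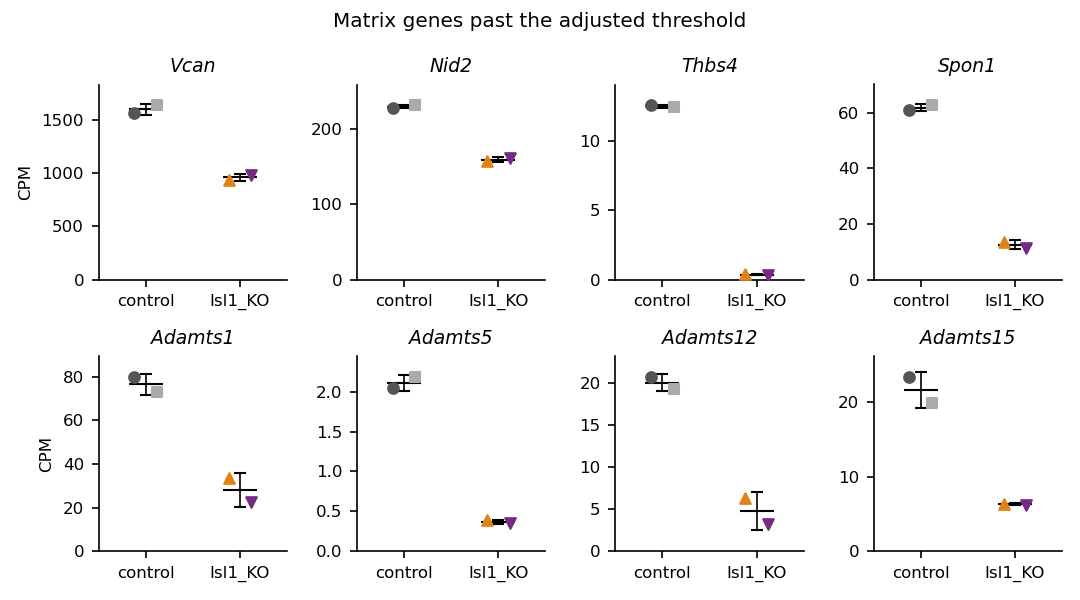
CPM in each library for the 8 matrix genes with an edgeR adjusted p under 0.05, with the group mean as a line and the SD of 2 libraries as bars, each axis starting at 0. Vcan goes from a mean of 1600.3 CPM to 962 CPM, and Thbs4 from 12.6 and 12.5 CPM to 0.384 and 0.347 CPM.

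Markers of the cell types that the sorted cells could hold moved as well. The summed level of 21 mesenchyme and fibroblast markers, which include collagen genes, was 5578 and 5420.1 CPM in control, 5114 CPM in Isl1_KO replicate 1 and 3315 CPM in replicate 2. Of the 20 tested, 7 were lower than control by more than 0.58 in replicate 1 and 12 in replicate 2, beside 9.29% and 14.1% of all tested genes. Dpt had no count in any library. Prrx1 and Twist1 passed the edgeR threshold as lower (adjusted p = 0.0240 and 0.0467). The list did not move one way, since Cdh11 and Zeb2 lay above both control libraries in each Isl1_KO library. The sum of 6 smooth muscle markers was 2528 and 2534 CPM in control, 2177 CPM in Isl1_KO replicate 1 and 746 CPM in replicate 2, with 1 and 5 of the 6 lower by more than 0.58. In the mesenchyme and smooth muscle lists Isl1_KO replicate 2 was the lowest library, as it was for the matrix genes. Isl1_KO replicate 2 was also the lowest in the cardiomyocyte, blood, yolk sac endoderm and epicardial sums given below. It was not the lowest in the endothelial, epithelial and pluripotency sums. Of 10 cardiomyocyte markers, all 9 tested passed the edgeR threshold as lower, and their summed level was 1935 and 2021 CPM in control and 121 and 71.2 CPM in Isl1_KO. The sum of 9 endothelial markers ranged from 392 to 436 CPM, with Kdr the most abundant, although 4 of the 9 in Isl1_KO replicate 1 and 6 of the 9 in replicate 2 were lower than control by more than 0.58. That of 5 epithelial markers ranged from 1325 to 1439 CPM over the 4 libraries. Yolk sac endoderm markers summed to 157 and 160 CPM in control and to 147 and 90.0 CPM in Isl1_KO, and blood markers to 536 and 544 CPM in control and to 394 and 270.4 CPM in Isl1_KO. The blood markers did not move one way, since Runx1 passed the edgeR threshold as higher (log2 fold change 0.57, adjusted p = 0.0335), while the embryonic globin Hbb-bh1 went from 284 and 293 CPM in control to 160 and 42.0 CPM in Isl1_KO. Epicardial markers were low, at 3.99 to 11.1 CPM in sum, and pluripotency markers summed to 28.4 to 51.9 CPM, highest in Isl1_KO replicate 2. The part of these cell types in the levels of the matrix genes was not tested.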

How the data were processed

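RNA-Seq libraries of sorted progenitors were compared as 2 control against 2 Isl1_KO, grouped by the sample titles, which say knockout where the series' design text has knockdown. The authors mapped reads to mm9 with STAR (introns of 20 to 500000 bases) and counted exonic reads of RefSeq transcripts with HOMER, on both strands together, so the deposited counts are raw numbers of reads per transcript. Transcripts of a gene share reads, so 1 entry a symbol was kept, that with the most reads (57.0% of all counts). The authors' deposited RPKM values were not used. RPKM values given here are CPM divided by the transcript length in kilobases. Columns of log2 fold changes, p-values, the Wald score and the mean signal from the authors' DESeq2 run were not used. The versions of these tools are not given in the sources used here, and 0 columns of per-sample values were left unmatched.

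Groups were compared in R 4.3.3 with edgeR 4.0.16 (quasi-likelihood F test, TMM, filterByExpr, two-sided, Benjamini-Hochberg adjustment over 12715 genes, threshold 0.05). The comparison was also tested on simulated data. The result of that is not given here, and nothing on the unequal spread of the pairs is drawn from it. DESeq2 1.42.0 was run by the criteria of the study. Single libraries were compared in log2 CPM with a prior count of 1, without a test. Counting intervals were 95%, exact binomial or, for shares of reads, Wilson. They cover counting error only, since the reads had no molecular identifiers. Alternatives were other size factors, tools, filters and entries, a replicate block and leaving out each library.

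Library by library values were given for genes past the threshold, the 12 with the largest difference between the Isl1_KO libraries, the 6 with the highest mean RPKM and those not tested. The others were summarised, and those of them that are named with a value were chosen after their values were seen. Of the further matrix genes, those past the threshold and the 5 with the largest difference between the Isl1_KO libraries were to be named, of which 1 is not reported here. The members and lists were chosen with earlier results of these data known. Scripts used Python 3.11.15 with numpy 2.4.6, pandas 2.3.3, matplotlib 3.10.9 and scipy 1.17.1.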

Additional observations from a re-analysis of the deposited data

How the results depend on the processing

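Genes past the threshold were counted here in either direction, for the matrix genes and the further matrix genes alike. The count of matrix genes was 2 in the main comparison, both lower. It was 8 with DESeq2, 6 without a filter on low counts and 5 with the replicate block. It ranged from 0 to 31 when each library was left out. The 6 without a filter include Fbln2, for which both Isl1_KO libraries lay above both control libraries. The count of 6 further matrix genes was 3 with at least 10 counts in every library and ranged from 1 to 66 when each library was left out, where the lone library was assumed to vary like the other group. Leaving out a library of a group leaves the spread to the other group, and the control pair was far closer than the Isl1_KO pair. Without Isl1_KO replicate 2, the log2 fold change turned to 0.15 for Cyr61 and to 0.090 for Serpinh1, against -0.59 and -0.62 without Isl1_KO replicate 1. Over the alternatives for single named genes, 140 values kept direction and side of the threshold, 32 passed it newly, 16 no longer passed it and 2 reversed. Same-numbered libraries of the groups did not deviate together (r = 0.0144 over 12715 genes), so the replicate block describes numbers and not pairs. The counts per Isl1_KO library and their medians, and the fall of Isl1 (-4.39 with the replicate block), kept direction and side under the alternatives tried for them. The Vcan entry without either long exon was added as an alternative after seeing the data. Depth limits the genes with under 10 counts in a library.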

Other observations

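Of the 86 further matrix genes tested, 7 (8.14%) were more than 1 higher in Isl1_KO replicate 1 than in replicate 2 in log2 CPM, beside 3.45% of all tested genes. Another 2 (2.33%), Efemp1 at -1.20 and Hmcn1 at -1.01, were as far the other way, beside 1.7% of all. Those with the largest differences are given here, all higher in replicate 1. Smoc2, a secreted calcium-binding matricellular protein, was at 57.2 and 51.9 CPM in control, 46.8 CPM in Isl1_KO replicate 1 and 10.5 CPM in replicate 2. Mmp9, the gelatinase B gene, was at 324 and 316 CPM in control, 384 CPM in Isl1_KO replicate 1 and 90.8 CPM in replicate 2. Mmp9 thus lay above both control libraries in replicate 1 and below both in replicate 2.

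Hapln3 and Emilin3 were low. Hapln3, a hyaluronan link protein, was at 1.59 and 1.53 CPM in control and at 1.38 and 0.260 CPM in Isl1_KO, the last of these at the floor of 3 counts. Emilin3 was at 3.41 and 3.06 CPM in control and at 3.84 and 0.954 CPM in Isl1_KO. None of these 4 genes passed the edgeR threshold, with adjusted p-values from 0.426 to 0.736.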
